A study of Homo sapiens with 6 samples.

Results

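The genes described here are targets of ATF6 and XBP1, the transcription factors of the unfolded protein response, together with XBP1 itself: HSPA5, HSP90B1, HYOU1, PDIA4, DNAJB9, DNAJC3, SDF2L1, HERPUD1, EDEM1 and XBP1. They were chosen by gene symbol, and 9 of the 10 had a probe set, 1 each, among 17687 genes measured. HSP90B1, the HSP90 of the endoplasmic reticulum (ER), had no probe set under its symbol and was not analysed here. RNA came from the established cell line T24 (human bladder cancer), exposed for 24 h to oxidized low-density lipoprotein (ox-LDL, 20 µg/mL) or to vehicle. ox-LDL is a cholesterol-carrying plasma particle with oxidized lipids and protein, taken up through scavenger receptors. Both groups had been kept for 12 h without serum beforehand, and 10% serum is recorded for both groups. There were 3 ox-LDL and 3 vehicle samples, with 1 array per sample, and the question was which transcripts differed between them. The labels do not say whether the 3 samples within a group came from separate cultures, and the p-values below then cover no more than the spread among them, which may be technical.

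The ER folds proteins destined for secretion and for membranes. When unfolded proteins accumulate there, the sensors IRE1, PERK and ATF6 are released from the chaperone HSPA5 and become active: ATF6 is cut at the Golgi to give a transcription factor, IRE1 splices the mRNA of XBP1, and PERK slows translation and lets ATF4 be made. ATF6 and spliced XBP1 then turn on chaperones, their co-factors and the machinery of ER-associated degradation (ERAD), which carries misfolded proteins back to the cytosol for the proteasome.

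Values are log2 expression after RMA (robust multi-array average), so a difference of -1 is a 2-fold fall. RMA makes the arrays alike, which hides any change in total RNA per cell, and fewer cells that express a gene cannot be told apart from less RNA per cell. Array medians lay between 7.11 and 7.18. Vehicle replicate 3 stood apart, with correlations of 0.979 to 0.988 across probe sets with the other 5 arrays, which correlated at 0.992 to 0.997 with each other, and results are therefore also given without it. One description field speaks of control and G9a siRNA in place of vehicle and ox-LDL. The ox-LDL arrays gave 8.34, 8.26 and 8.06 for EHMT2, the gene of G9a, against 8.005, 7.91 and 7.63 on the vehicle arrays. It was thus not lower with ox-LDL, and every vehicle array lay below every ox-LDL array (difference 0.37, SE 0.12, limma adjusted p = 0.125). Which of the fields is right was not tested further, and groups follow the titles. KRT7, KRT8 and KRT18, keratins of simple epithelium, averaged 12.25, 12.20 and 11.91 with ox-LDL and 11.97, 12.10 and 11.89 with vehicle. KRT19, S100P and EPCAM, listed with them, were far lower, at 7.78, 6.69 and 5.61 with ox-LDL and 7.67, 7.07 and 5.48 with vehicle. A background limit of 5.21 was set at the 95th percentile of negative control values. Mean levels over all arrays were above it for 7 of 8 epithelial and bladder line genes and 4 of 6 measured urothelial genes. Those under it were the adhesion protein CDH1 (E-cadherin) and the urothelial plaque proteins UPK1B and UPK3A. The first of these lists includes VIM, a filament protein not particular to epithelium, at 12.67 with ox-LDL and 12.74 with vehicle. Also above the limit were 4 of 6 leukocyte, 3 of 4 endothelial, 4 of 5 fibroblast and 1 of 4 plasma cell markers. No marker passed the test in the leukocyte (6 genes), endothelial (4), fibroblast (5) or plasma cell (4) list in limma, where 1, 1, 1 and 2 had an unadjusted p under 0.05. The mean log2 level of the plasma cell list, a cell type rich in ER chaperones, was 4.71 to 4.81 on the ox-LDL arrays and 4.88 to 5.14 on the vehicle arrays, and JCHAIN and TNFRSF17 were under the background limit on every array. MZB1 averaged 5.01 ± 0.17 with ox-LDL and 5.37 ± 0.33 with vehicle (SD, n = 3 each), on either side of that limit. The fibroblast list stood at 5.98 to 6.06 with ox-LDL and 6.09 to 6.45 with vehicle, the leukocyte list at 6.01 to 6.05 and 6.08 to 6.34, and the endothelial list at 5.71 to 5.79 and 5.71 to 6.13. Housekeeping genes ran the other way, at 10.95 to 10.97 with ox-LDL and 10.71 to 10.82 with vehicle, with 0 of 7 called by limma (2 at an unadjusted p under 0.05). The part of these shifts in the results below was not tested.

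The promoters of these genes are known for ER stress elements, to which ATF6 and XBP1 bind together with the factor NF-Y. In RefSeq windows from 250 bases before to 50 after the gene start (GRCh38.p14), found for 8 of the 9 measured genes, both strands were searched for the element ERSE (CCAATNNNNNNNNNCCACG), the related ERSE-II (ATTGGNCCACG), the XBP1 element UPRE (TGACGTGG) and the ATF4 element CARE (TGATGNAAT). ERSE was found in HSPA5 and XBP1, against 0.0769% of all 35116 windows, and ERSE-II in HERPUD1, HYOU1 and SDF2L1, against 0.0541%. HYOU1 held ERSE-II 2 times, and its upstream copy overlapped the UPRE found in HYOU1 (0.729% of windows). CARE in exactly these letters was found in 0 of the 8 (0.991% of windows). No exact match of any element was found in DNAJB9, DNAJC3 or EDEM1. Only exact matches of these letters were counted (N is any base), so a variant of an element would be missed. A match is a description of the letters, not of binding. The genes were chosen as targets of ATF6 and XBP1, so matches above the share of all windows are no independent result. The 250 bases before the gene start are shown for the 5 genes with a match, to let their elements be compared, and for DNAJB9, the gene that fell most. They are read 5′ to 3′ on the strand of the gene, with the matched elements in capitals.
HSPA5, chr9:125241344-125241593, minus strand: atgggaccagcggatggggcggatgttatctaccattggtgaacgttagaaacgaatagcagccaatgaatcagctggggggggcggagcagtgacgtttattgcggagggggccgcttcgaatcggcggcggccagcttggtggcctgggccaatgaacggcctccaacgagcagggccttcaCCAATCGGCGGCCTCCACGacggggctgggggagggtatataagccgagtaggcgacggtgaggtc
XBP1, chr22:28800570-28800819, minus strand: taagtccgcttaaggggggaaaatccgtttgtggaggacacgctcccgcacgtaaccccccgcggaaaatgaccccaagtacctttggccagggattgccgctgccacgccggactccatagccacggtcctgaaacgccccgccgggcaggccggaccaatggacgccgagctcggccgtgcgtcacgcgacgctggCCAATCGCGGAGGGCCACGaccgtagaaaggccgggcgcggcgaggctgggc
HERPUD1, chr16:56931892-56932141, plus strand: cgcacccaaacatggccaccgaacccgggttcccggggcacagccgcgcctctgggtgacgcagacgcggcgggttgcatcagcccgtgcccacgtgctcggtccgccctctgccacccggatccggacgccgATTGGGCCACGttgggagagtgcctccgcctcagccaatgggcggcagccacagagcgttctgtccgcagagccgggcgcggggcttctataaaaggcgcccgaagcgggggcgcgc
HYOU1, chr11:119057206-119057455, minus strand: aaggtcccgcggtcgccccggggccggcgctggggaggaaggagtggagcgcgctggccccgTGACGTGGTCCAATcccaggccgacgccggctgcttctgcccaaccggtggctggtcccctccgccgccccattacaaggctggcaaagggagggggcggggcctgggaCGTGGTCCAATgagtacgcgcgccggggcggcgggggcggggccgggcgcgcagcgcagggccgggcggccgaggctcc
SDF2L1, chr22:21642052-21642301, plus strand: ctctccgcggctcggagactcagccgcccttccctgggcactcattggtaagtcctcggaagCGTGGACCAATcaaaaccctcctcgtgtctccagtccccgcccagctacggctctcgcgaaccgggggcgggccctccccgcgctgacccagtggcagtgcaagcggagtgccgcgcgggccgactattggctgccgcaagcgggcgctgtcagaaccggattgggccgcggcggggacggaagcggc
DNAJB9, chr7:108569624-108569873, plus strand: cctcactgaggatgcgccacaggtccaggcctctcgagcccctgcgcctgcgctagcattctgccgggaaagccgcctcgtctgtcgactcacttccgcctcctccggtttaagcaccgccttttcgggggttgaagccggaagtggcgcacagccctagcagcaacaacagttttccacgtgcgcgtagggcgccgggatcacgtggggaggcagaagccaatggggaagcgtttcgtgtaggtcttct

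**Figure D1:**
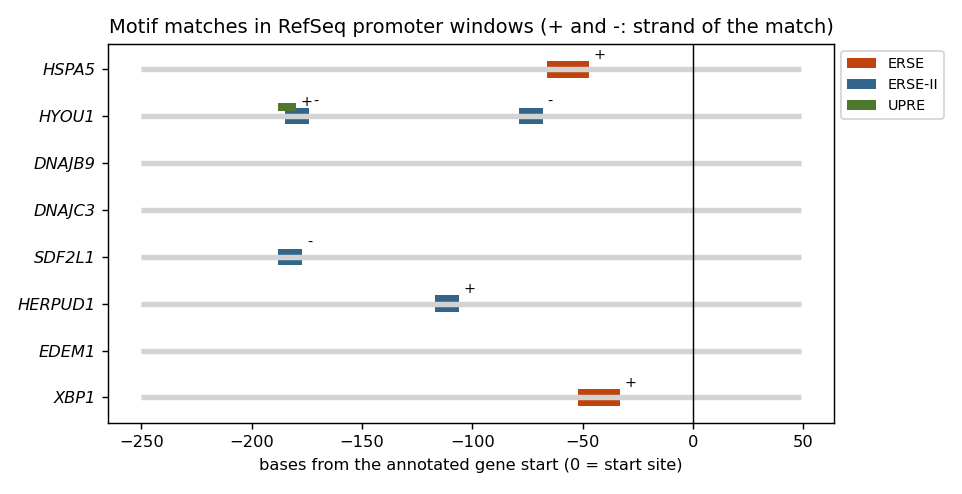
Position of each motif match in the promoter windows of 8 genes, in bases from the annotated gene start (0), with the strand of the match as + or -. The ERSE matches of HSPA5 and XBP1 span bases -66 to -48 and -52 to -34, and DNAJB9, DNAJC3 and EDEM1 have no match.

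After ox-LDL, 7 of the 9 measured genes fell and none rose: DNAJB9, HERPUD1, HSPA5, HYOU1, XBP1, EDEM1 and DNAJC3. Falls ranged from 4.30-fold for DNAJB9 to 1.33-fold for DNAJC3, and PDIA4 and SDF2L1 had negative differences that did not pass. Of all 21448 probe sets tested, 3.29% were called lower and 3.48% higher (limma, two-sided, Benjamini-Hochberg adjusted p under 0.05). These were 705 lower and 746 higher, against 602 lower and 822 higher with array medians made equal. A robust fit with an intensity trend called 1041 lower and 1608 higher, and leaving out ox-LDL replicate 1 gave 212 lower and 97 higher. The median log2 difference of the 9 genes was -0.54, beside -0.03 over all probe sets. In each of the 9 genes all 3 ox-LDL arrays lay below all 3 vehicle arrays, which held for 17.7% of all probe sets. The selection stated by the study (p up to 0.001, fold change from 1.5 upward), applied to the unadjusted limma p, took DNAJB9, HERPUD1, HSPA5 and HYOU1, beside 1.31% of all probe sets that it took as lower. Without vehicle replicate 3, 8 genes fell, PDIA4 being the addition, beside 5.69% of all probe sets. Without ox-LDL replicate 2 or without ox-LDL replicate 3 the count was 4, made up of the same DNAJB9, HERPUD1, HSPA5 and HYOU1. The share of all probe sets called lower was then 0.988% or 1.07%, and it was 0.988% without ox-LDL replicate 1, 1.86% without vehicle replicate 1 and 1.8% without vehicle replicate 2.

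**Figure D2:**
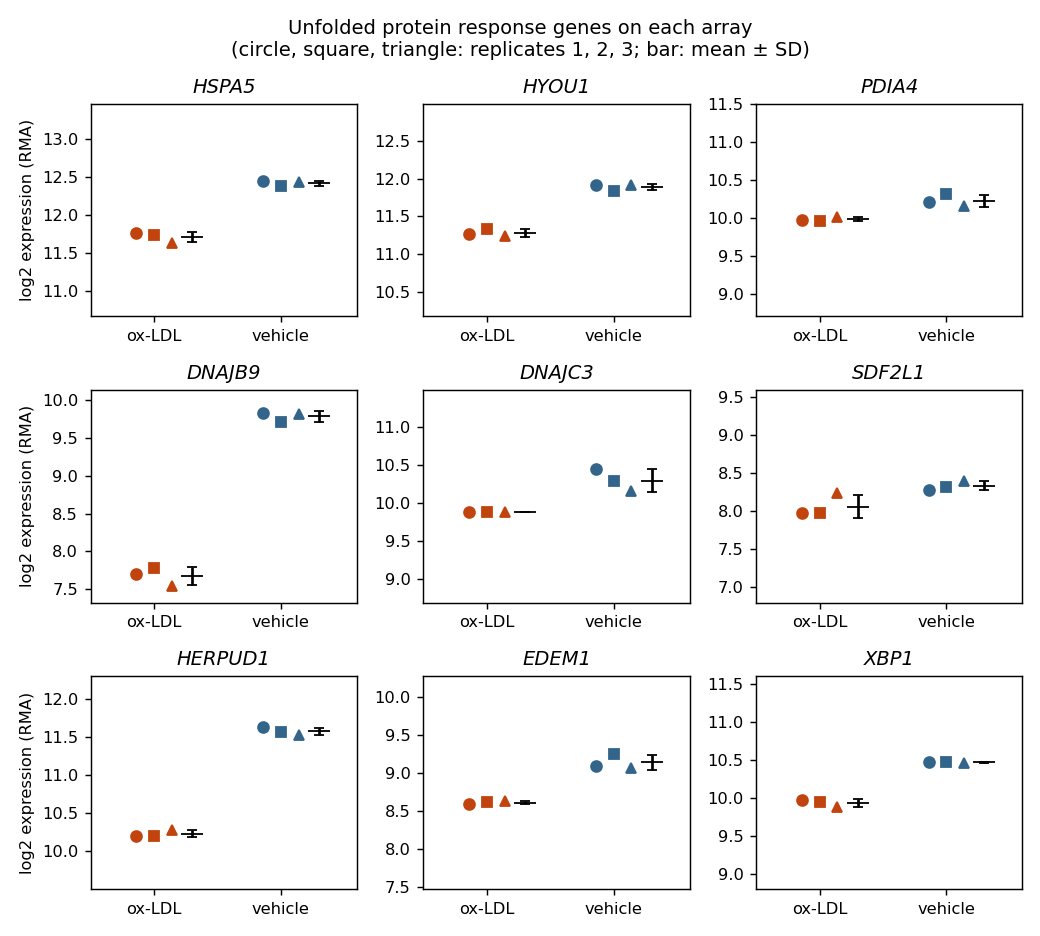
Log2 expression (RMA) of the 9 genes on each array, with ox-LDL left of vehicle. Symbols are replicates 1, 2 and 3, bars the mean ± SD of 3 arrays, and every panel spans the same log2 range. DNAJB9 lies between 7.54 and 7.78 with ox-LDL and between 9.70 and 9.83 with vehicle, while the gap between the groups is smallest in SDF2L1.

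Among the chaperones of the ER lumen, HSPA5 and HYOU1 fell and PDIA4 did not pass. HSPA5 encodes BiP, the HSP70 of the ER, which binds unfolded chains and holds the stress sensors inactive. It had log2 values of 11.76, 11.73 and 11.63 with ox-LDL, against 12.44, 12.38 and 12.43 with vehicle. The 2 groups were separated by 0.62 between their nearest arrays, with ox-LDL replicate 3 the lowest. HSPA5 averaged 11.71 ± 0.07 with ox-LDL and 12.42 ± 0.03 with vehicle (SD, n = 3 each), a difference of -0.71 (SE 0.07, 95% confidence interval -0.88 to -0.54, limma adjusted p = 0.00363). Its level with ox-LDL was 61.1% of that with vehicle, and its call held without any 1 array (limma adjusted p up to 0.0321).

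HYOU1 encodes a large HSP70-related protein that exchanges the nucleotide of BiP. Its log2 values were 11.27, 11.34 and 11.25 with ox-LDL, against 11.92, 11.84 and 11.91 with vehicle. The groups were 0.50 apart at their nearest arrays, and vehicle replicate 3 lay with the other vehicle arrays. The difference was -0.60 (SE 0.07, 95% confidence interval -0.77 to -0.44, limma adjusted p = 0.00554), 65.8% of the vehicle level, and it too stayed called without any 1 array (limma adjusted p up to 0.0467). PDIA4, a protein disulfide isomerase, had log2 values of 9.98, 9.96 and 10.02 with ox-LDL, against 10.22, 10.32 and 10.16 with vehicle. The groups did not overlap, but the difference was -0.25 (SE 0.07, 95% confidence interval -0.42 to -0.07) and missed the threshold (limma adjusted p = 0.0979). It passed without vehicle replicate 3 (-0.28, limma adjusted p = 0.0390).

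Co-chaperones of BiP differed widely in size of change. DNAJB9, a J-domain protein that directs BiP to misfolded clients and to IRE1, had log2 values of 7.71, 7.78 and 7.54 with ox-LDL, against 9.83, 9.70 and 9.81 with vehicle. All ox-LDL arrays were lower by at least 1.92 than any vehicle array. DNAJB9 averaged 7.68 ± 0.12 with ox-LDL and 9.78 ± 0.07 with vehicle (SD, n = 3 each), a fall to 23.3% of the vehicle level (difference -2.10, SE 0.09, 95% confidence interval -2.31 to -1.89, limma adjusted p = 0.000254). Counted from the most negative, this was difference number 9 among the 21448 probe sets. Its confidence interval did not overlap that of any other of the 9 genes.

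DNAJC3, a J-domain co-chaperone also known as an inhibitor of PERK and related kinases, had log2 values of 9.87, 9.88 and 9.88 with ox-LDL, against 10.44, 10.28 and 10.15 with vehicle. The ox-LDL arrays were nearly identical (SD 0.0034) and the vehicle arrays spread more (SD 0.146), with vehicle replicate 3 the lowest. The difference of -0.41 (SE 0.09, 95% confidence interval -0.63 to -0.20) passed narrowly (limma adjusted p = 0.0441). Without vehicle replicate 3 it was -0.49 (limma adjusted p = 0.0116), and the call was lost when any 1 of the other 5 arrays was left out (limma adjusted p 0.0817 to 0.164).

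SDF2L1, which works with BiP and the J-domain protein DNAJB11 to keep folding proteins soluble, had log2 values of 7.97, 7.98 and 8.24 with ox-LDL, against 8.28, 8.32 and 8.40 with vehicle. ox-LDL replicate 3 lay only 0.05 below the lowest vehicle array. The difference, at -0.27 (SE 0.10, 95% confidence interval -0.50 to -0.05), missed the threshold (limma adjusted p = 0.136), and it was -0.36 without ox-LDL replicate 3, where it did not pass either. SDF2L1 carries an ERSE-II element in the window shown above, as do HERPUD1 and HYOU1. The DNAJB9 window held no exact match of the elements searched.

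**Figure D3:**
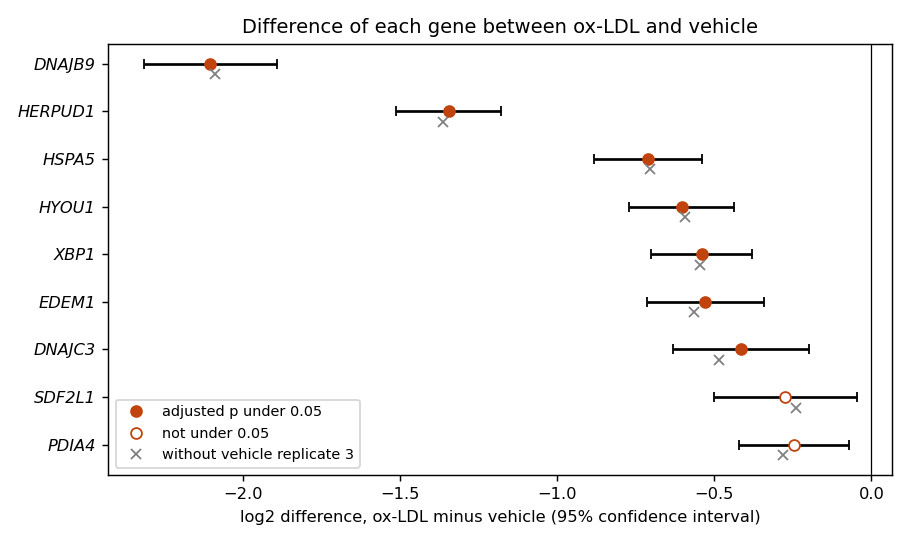
Log2 difference, ox-LDL minus vehicle, of the 9 genes with 95% confidence intervals from limma. Filled points passed at an adjusted p under 0.05, and crosses give the difference without vehicle replicate 3. All 9 differences are negative, from -2.10 for DNAJB9 to -0.25 for PDIA4.

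Both ERAD genes fell, HERPUD1 more than EDEM1. HERPUD1 encodes an ER membrane protein that helps assemble the HRD1 ubiquitin ligase complex. It had log2 values of 10.21, 10.21 and 10.29 with ox-LDL, against 11.63, 11.56 and 11.54 with vehicle. The groups stood 1.25 apart at their nearest arrays. HERPUD1 averaged 10.23 ± 0.05 with ox-LDL and 11.58 ± 0.05 with vehicle (SD, n = 3 each), or 39.4% of the vehicle level (difference -1.34, SE 0.07, 95% confidence interval -1.51 to -1.18, limma adjusted p = 0.000417). Like that of DNAJB9, its interval lay apart from those of the other genes, and it was called without any 1 array.

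EDEM1, a mannosidase-like protein that marks misfolded glycoproteins for removal, had log2 values of 8.59, 8.61 and 8.63 with ox-LDL, against 9.09, 9.25 and 9.06 with vehicle. The ox-LDL arrays lay close together and at least 0.44 below the vehicle arrays. Its difference of -0.53 (SE 0.08, 95% confidence interval -0.71 to -0.34, limma adjusted p = 0.0129) lost its call without ox-LDL replicate 1, 2 or 3 (limma adjusted p = 0.0775, 0.0773 and 0.0716), although its size hardly moved (-0.52 to -0.54).

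XBP1, the transcription factor whose spliced form turns on most of these genes, had log2 values of 9.96, 9.95 and 9.87 with ox-LDL, against 10.47, 10.47 and 10.46 with vehicle. The vehicle arrays agreed within an SD of 0.0064, and the groups were 0.50 apart at their nearest. The difference was -0.54 (SE 0.07, 95% confidence interval -0.70 to -0.38, limma adjusted p = 0.00737), 68.8% of the vehicle level. It did not pass without ox-LDL replicate 2 (-0.55, limma adjusted p = 0.0521) or without ox-LDL replicate 3 (-0.51, limma adjusted p = 0.0551). A single value per gene does not separate spliced from unspliced XBP1 mRNA, so IRE1 activity was not measured. HSPA5, HYOU1 and XBP1 had differences whose intervals overlapped one another and those of EDEM1 and DNAJC3. The interval of HSPA5 did not overlap those of PDIA4 and SDF2L1, and that of HYOU1 did not overlap that of PDIA4.

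**Figure D4:**
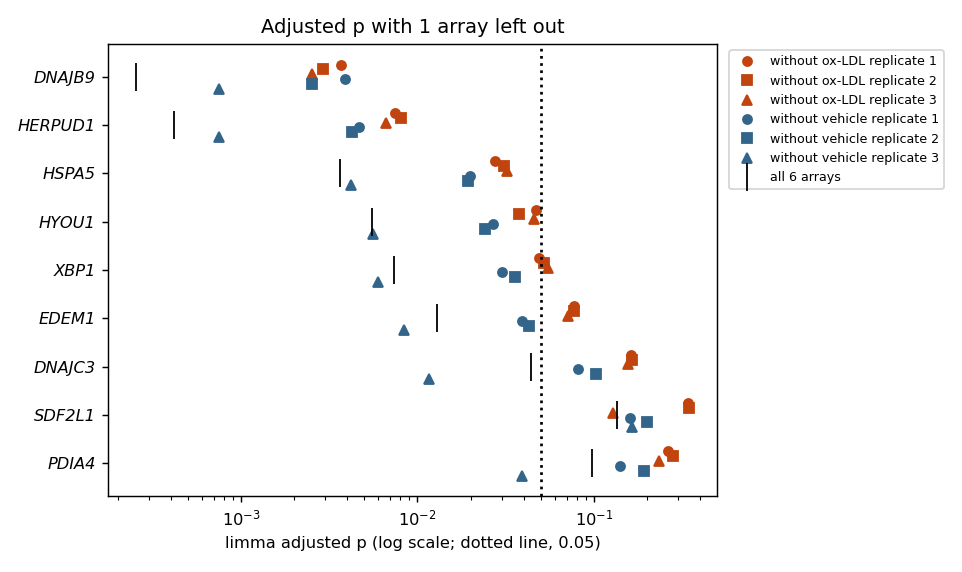
Limma adjusted p (log axis) of each of the 9 genes with 1 array left out, coloured by group, beside the value with all 6 arrays (vertical bar) and the threshold of 0.05 (dotted line). DNAJB9, HERPUD1, HSPA5 and HYOU1 stay left of the line throughout, and SDF2L1 stays right of it.

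The stress sensors themselves divided. Of 10 genes for the sensors, the proteases that cut ATF6 and the partners of the promoter elements, 8 were measured. MBTPS2 and YY1 had no probe set under their symbols. Of the 8, 2 fell, 1 rose and 5 did not pass (median -0.08). Over all probe sets, 3.29% were called lower and 3.48% higher. ERN1, which encodes IRE1, had log2 values of 7.30, 7.15 and 7.16 with ox-LDL, against 8.51, 8.49 and 8.21 with vehicle. All ox-LDL arrays lay below all vehicle arrays, and the difference of -1.20 (SE 0.11, limma adjusted p = 0.00231) stayed called without any 1 array. EIF2AK3, which encodes PERK, averaged 8.10 ± 0.02 with ox-LDL and 8.75 ± 0.04 with vehicle (SD, n = 3 each), and its difference of -0.66 (SE 0.07, limma adjusted p = 0.00359) did likewise. ATF6 had log2 values of 9.69, 9.68 and 9.68 with ox-LDL, against 9.95, 9.83 and 9.56 with vehicle, so that the groups overlapped (difference -0.10, SE 0.11, limma adjusted p = 0.587). ATF6B, its relative, had a difference of -0.07 (SE 0.07), and MBTPS1, the site-1 protease, one of -0.23 (SE 0.09). Of the NF-Y subunits, NFYB rose by 0.64 (SE 0.14, limma adjusted p = 0.0419), a call that was kept without vehicle replicate 3 but lost without any 1 of the other 5 arrays, while NFYA and NFYC had differences of 0.08 and 0.22. The sign of NFYC turned without vehicle replicate 3.

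Among 24 other genes of ERAD measured of 25 listed, 4 fell, none rose and 20 did not pass (median -0.14, with 20 negative differences). The share that fell was 4 of 24, beside 3.29% of all probe sets. SELENOS, a selenoprotein that recruits the ATPase VCP to the ER membrane, had log2 values of 9.10, 9.14 and 9.15 with ox-LDL, against 9.99, 9.95 and 9.98 with vehicle. It fell by 0.85 (SE 0.07, limma adjusted p = 0.00147), and the groups were far apart beside their spread. SYVN1, the ubiquitin ligase HRD1, had log2 values of 10.24, 10.23 and 10.20 with ox-LDL, against 11.18, 11.0045 and 11.10 with vehicle. Its difference of -0.87 (SE 0.08, limma adjusted p = 0.00226) stayed called without any 1 array, as did that of SELENOS. EDEM2, a relative of EDEM1, fell by 0.40 (SE 0.07, limma adjusted p = 0.0258). SEL1L, the partner of HRD1, named after its value was seen, fell by 0.40 (SE 0.08, limma adjusted p = 0.0349). EDEM2 lost its call when vehicle replicate 2 or any single ox-LDL array was left out, and SEL1L without any 1 array other than vehicle replicate 3. Without vehicle replicate 3, 7 of the 24 fell and 1 rose, beside 5.69% and 6.76% of all probe sets. The count of genes that fell was 2 when vehicle replicate 2 or any single ox-LDL array was left out. The share of all probe sets called lower was then 0.988% to 1.8%.

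Of 18 other folding enzymes and co-chaperones of the ER measured of 20 listed, 3 fell, none rose and 15 were not called (median -0.05), beside 3.29% of all probe sets called lower. DNAJB11, the J-domain partner of SDF2L1, had log2 values of 9.93, 9.96 and 9.91 with ox-LDL, against 10.34, 10.34 and 10.25 with vehicle, and fell by 0.37 (SE 0.07, limma adjusted p = 0.0264). The thiol oxidase ERO1B fell by 0.71 (SE 0.14, limma adjusted p = 0.0351) and the disulfide reductase DNAJC10 by 0.47 (SE 0.10, limma adjusted p = 0.0444). All 3 lost the call without any 1 array other than vehicle replicate 3, and without that array 5 of the 18 fell (5.69% of all probe sets). Of those not called, 4 abundant lectin chaperones and isomerases, named after their values were seen, had differences of 0.04 for CALR (SE 0.07, limma adjusted p = 0.743), -0.11 for CANX (SE 0.07, limma adjusted p = 0.324), -0.04 for P4HB (SE 0.07) and -0.04 for PDIA3 (SE 0.07). Others not called, also named after their values were seen, differed more and in both directions. These were SDF2 at 0.36 (SE 0.12), CRELD2 at 0.27 (SE 0.10) and MANF at -0.46 (SE 0.16). MANF passed without vehicle replicate 3 (-0.65, limma adjusted p = 0.00343), and SDF2 and CRELD2 did not.

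Targets of the PERK arm had the most negative median of the 5 comparison lists. PERK activity was not measured, and what lowered these genes was not tested. Of 14 measured, 12 fell and 2 did not pass (median -1.08), beside 3.29% of all probe sets called lower. DDIT3, the pro-apoptotic factor CHOP, had log2 values of 7.61, 7.32 and 7.45 with ox-LDL, against 9.45, 9.46 and 9.44 with vehicle. It fell by 1.99 (SE 0.09, limma adjusted p = 0.00028), close in size to DNAJB9. TRIB3, a pseudokinase, fell by 1.59 (SE 0.07) and SESN2, an inhibitor of mTORC1, by 1.25 (SE 0.09), and the calls of these 3 held without any 1 array. The number that fell was 12 without vehicle replicate 3 and 10 without vehicle replicate 1 or 2, beside 5.69%, 1.86% and 1.8% of all probe sets. It was 7, 7 and 8 without ox-LDL replicates 1, 2 and 3, beside 0.988%, 0.988% and 1.07% of all probe sets.

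Among chaperones outside the ER, 1 gene was called with all 6 arrays, and most differences were positive. Of 14 cytosolic and mitochondrial chaperones measured of 15 listed, none fell in limma, 1 rose and 13 did not pass (median 0.15, with 2 negative differences and 5 genes at an unadjusted p under 0.05), beside 3.29% of all probe sets called lower and 3.48% higher. TRAP1, the HSP90 of mitochondria, had log2 values of between 9.61 and 9.72 with ox-LDL, against 8.65 to 9.03 with vehicle. It rose by 0.77 (SE 0.11, limma adjusted p = 0.0126), a call lost without any 1 ox-LDL array. HSPA4 and HSPA9, a cytosolic exchange factor and the mitochondrial HSP70, had differences of 0.28 (SE 0.07, limma adjusted p = 0.0724) and -0.24 (SE 0.07, limma adjusted p = 0.0815). Without vehicle replicate 3, 3 rose and 1 fell, beside 6.76% and 5.69% of all probe sets. A robust fit with an intensity trend gave 3 higher and 2 lower, beside 1608 higher and 1041 lower of 21448. The mean log2 level of the list was 10.888 to 10.893 on the ox-LDL arrays and 10.67 to 10.76 on the vehicle arrays. Housekeeping genes shifted the same way. No test compared these lists with each other.

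**Figure D5:**
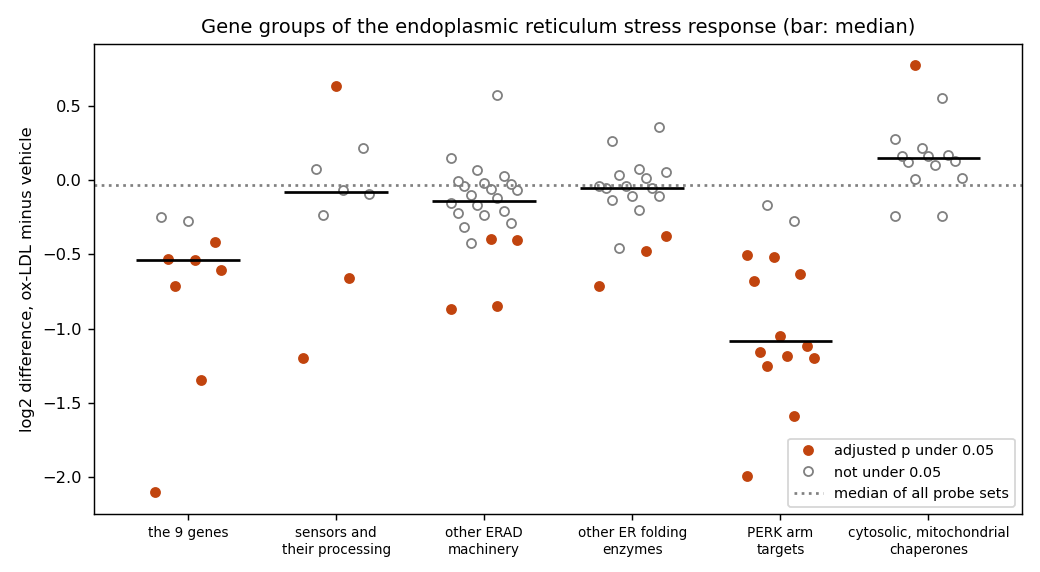
Log2 difference, ox-LDL minus vehicle, of each measured gene in 6 groups, with filled points at a limma adjusted p under 0.05, bars at the group median and a dotted line at the median of all probe sets (-0.03). The medians are -0.54 for the 9 genes and -1.08 for the PERK arm targets, against 0.15 for chaperones of the cytosol and mitochondria.

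Of named genes outside all lists, the 5 whose profile over the 6 arrays, each centred on its own mean, lay closest to that of HSPA5 were QPRT, an enzyme of NAD synthesis, ERRFI1, an inhibitor of the EGF receptor, ARFGAP3, a GTPase-activating protein of the Golgi, DUSP6, a phosphatase of ERK, and PABIR3. Their root mean square distances from HSPA5 were 0.02, 0.04, 0.04, 0.04 and 0.04 on the log2 scale. Among the 9 genes, HYOU1 at 0.06 and XBP1 at 0.09 were the nearest to HSPA5 and DNAJB9 at 0.70 the farthest. The measure chiefly picks genes with a difference of about the same size between the groups, and the differences of these 5 ran from -0.77 for DUSP6 to -0.68 for ERRFI1.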

How the data were processed

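Per the labels' protocols, RNA was isolated with Trizol and 500 ng of it was turned into biotinylated cDNA (Affymetrix WT PLUS kit). Per the submitters' processing notes, the log2 values that the authors deposited were made with RMA; neither its version nor a genome build is given in the sources used here. That the deposited scale is log2 was inferred from the range of 2.28 to 14.1. Arrays have no read depth; precision is limited by their number.

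Of 24350 probe sets, 2902 controls were left out. Of the other 21448, 17709 had 1 gene symbol in the platform annotation, 0 several and 3739 none. Groups came from the titles. All 6 arrays entered 1 limma model (lmFit and eBayes, limma 3.58.1, R 4.3.3), ox-LDL minus vehicle, with p-values adjusted by Benjamini-Hochberg over 21448 probe sets and called under 0.05; the procedure was tested on simulated data. A gene with several probe sets was represented by the brightest; each of the 9 members had 1, so averaging a gene's probe sets changed nothing for them. The members and lists were chosen with earlier results of these data known. Named are all members, EHMT2, every gene of the sensor list, the 3 genes of each other pathway list with the smallest p, and the 5 nearest to HSPA5; others are said to be named after their values were seen, apart from cell type markers and the housekeeping list, which is given as a whole. Promoter windows are RefSeq's (GRCh38.p14), taken where the window's start site is the gene's annotated 5′ end. Figures used matplotlib 3.10.9. Alternatives were other scalings, a filter on dim probe sets, other variance models, the replicate number as a block, the study's selection and leaving out each array.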

Additional observations from a re-analysis of the deposited data

How the results depend on the processing

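All 9 differences were negative under all 15 alternatives. Only the other scalings could have turned a sign, because every ox-LDL array lay below every vehicle array in all 9 genes. DNAJB9, HERPUD1, HSPA5 and HYOU1 kept their calls under each alternative. Of 135 results for single genes, 113 kept their side of the threshold, 17 lost the call (DNAJC3, EDEM1 and XBP1) and 5 gained it (PDIA4). The number of the 9 genes called lower, 7 with all arrays, was 4 under the study's stated selection and 4 to 8 with 1 array left out. Among all probe sets, 1451 were called, against 2608 among probe sets above the median level, 2649 with an intensity trend and robust fit, 3962 with array weights, 496 under the stated selection and 305 to 2670 with 1 array left out. Over the 5 comparison lists together 23 genes were called, against 35 with an intensity trend and robust fit, 35 with array weights, 14 under the stated selection and 11 to 32 with 1 array left out. With the replicate block, 550 probe sets, 14 list genes and 5 of the 9 genes were called, DNAJC3 and EDEM1 being lost. Same-numbered arrays did not deviate together (correlations of deviations from the group means of -0.01, 0.03 and 0.02), and not every array correlated best with its own number, so the numbers were not taken as pairs. Equal array medians moved the median of all probe sets by less than 0.1 on the log2 scale, and DNAJC3 did not pass there (limma adjusted p = 0.0691). The causes of these changes were not tested.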
